A study of Mus musculus with 28 samples.

Results

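The 10 circadian clock genes followed in mouse liver were Arntl, Npas2, Clock, Per1, Per2, Per3, Cry1, Nr1d1, Dbp and Tef. They were chosen by symbol, and 9 of them were among the 20302 genes and other transcripts (features) with enough signal to be tested. They had 18 probes, of which 17 passed the filter on dim probes. The data were 28 single-colour Agilent arrays of liver RNA, 4 in each of 7 groups. All mice lacked Fah, the last enzyme of tyrosine breakdown, and depend on the drug NTBC (nitisinone), which blocks an earlier step and keeps toxic tyrosine products from forming. Fah-/- p53-/- mice, which also lack the tumour suppressor p53, were sampled with no NTBC, on reduced NTBC and on full NTBC. Only livers with no NTBC came from Fah-/- p21-/- mice, which also lack p21, an inhibitor of the cell cycle. Fah-/- mice, with p53 and p21 intact, were sampled with no NTBC, on reduced NTBC and on full NTBC. Full NTBC meant 7.5 mg/L in drinking water. The reduced dose is given in the sample labels as 25% of that dose, and in the treatment note as 2.5%, for 3 months. Neither the age of the mice nor the time spent without NTBC is given in the sources used here. Per the labels, mice were handled in the light phase of a 12-hour light cycle. The hour at which each liver was taken is not given, so that hour of sampling and genotype or dose cannot be told apart in any comparison of these genes.

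The circadian clock is a feedback loop of transcription found in nearly every cell, and in liver it times much of the metabolism of sugars, lipids and bile acids. BMAL1 (the product of Arntl) pairs with CLOCK, or with its relative NPAS2, and switches on genes that carry E-boxes, among them the Per and Cry genes, whose products return to the nucleus and block that pair. The same pair drives Nr1d1, whose product REV-ERBα represses Arntl, and Dbp and Tef, which encode PAR bZIP activators that bind D-boxes and carry the rhythm to metabolic genes. In mouse liver the transcripts of Arntl and Npas2 peak at a time of day nearly opposite to that of Nr1d1, Dbp, Tef and Per3.

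Stretches of 250 bases before the start of transcription are shown because clock genes are known to be driven through short shared motifs. The set of RefSeq promoters used here (GRCm38.p6) held 9 of the 10 genes, all but Per2. Where a gene had several starts, only the one farthest upstream was searched. The motifs searched, on both strands, were the E-box CACGTG, its variant CACGTT, the D-box TTATGTAA, its variant TTACGTAA, the ROR element cores TAGGTCA and TGGGTCA, and the cAMP response element TGACGTCA. The 5 promoters with a match follow, 5′ to 3′ on the strand of the gene, with matches in capitals. AACGTG is CACGTT read on the other strand.
Per3: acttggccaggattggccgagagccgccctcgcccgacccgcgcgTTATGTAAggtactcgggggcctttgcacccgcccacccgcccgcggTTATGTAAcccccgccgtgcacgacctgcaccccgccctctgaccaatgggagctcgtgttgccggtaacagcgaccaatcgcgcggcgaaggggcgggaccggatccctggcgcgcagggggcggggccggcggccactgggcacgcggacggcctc
Tef: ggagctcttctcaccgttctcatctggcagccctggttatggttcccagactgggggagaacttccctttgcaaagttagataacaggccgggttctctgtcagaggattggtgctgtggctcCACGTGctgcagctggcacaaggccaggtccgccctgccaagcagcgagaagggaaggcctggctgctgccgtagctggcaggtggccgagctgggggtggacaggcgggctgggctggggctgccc
Nr1d1: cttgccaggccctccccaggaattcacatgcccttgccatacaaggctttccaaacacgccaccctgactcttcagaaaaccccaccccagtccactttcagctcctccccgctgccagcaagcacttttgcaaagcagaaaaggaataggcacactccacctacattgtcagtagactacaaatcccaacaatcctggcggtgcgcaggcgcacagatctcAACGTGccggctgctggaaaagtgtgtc
Per1: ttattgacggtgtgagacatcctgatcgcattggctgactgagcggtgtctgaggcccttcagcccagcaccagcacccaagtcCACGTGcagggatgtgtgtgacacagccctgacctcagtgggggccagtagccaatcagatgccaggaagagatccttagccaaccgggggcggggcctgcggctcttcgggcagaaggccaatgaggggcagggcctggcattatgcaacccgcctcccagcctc
Cry1: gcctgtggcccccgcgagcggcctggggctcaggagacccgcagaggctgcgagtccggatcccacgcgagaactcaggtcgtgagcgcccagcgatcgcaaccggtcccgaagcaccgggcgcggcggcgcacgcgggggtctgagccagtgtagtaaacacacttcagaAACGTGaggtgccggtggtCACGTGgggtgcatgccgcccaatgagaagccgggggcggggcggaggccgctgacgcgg

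These windows lie at chr4:151044666-151044915 (minus strand) for Per3, chr15:81802423-81802672 (plus strand) for Tef, chr11:98775378-98775627 (minus strand) for Nr1d1, chr11:69098699-69098948 (plus strand) for Per1 and chr10:85185055-85185304 (minus strand) for Cry1. The Per3 window held the D-box letters at 2 places, 205 to 198 and 158 to 151 bases before the start. These letters occur in 0.862% of the 27025 RefSeq promoters of the same length. The E-box letters were in 3 of the 9 windows (Per1, Cry1 and Tef), against 6.04% of all promoters, and the CACGTT variant in 2 (Cry1 and Nr1d1), against 3.93% of all. The promoters of Arntl, Npas2, Clock and Dbp held none of these motifs within the 250 bases. The D-box variant and the ROR and cAMP response elements matched 0 of the 9, against 0.0999%, 2.25%, 3.22% and 1.6% of all promoters. A match describes letters, not binding.

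A level here is the log2 of the processed signal minus the log2 of that array's 75th percentile, so 0 is the 75th percentile and 1 unit is a doubling. The 75th percentile itself was between 260 and 602 signal units on the 28 arrays, and 54.8% to 68.5% of probes were well above background. Differences were tested with limma over all 28 arrays, with Benjamini-Hochberg adjustment of p-values over the 20302 features, and a gene was called at an adjusted p under 0.05. Nothing in the labels says that the arrays of a group are from separate animals. The p-values thus measure the spread between these samples only. By part of the scan date in the file headers, the arrays fell into 3 sets that coincide with dose. Scanning runs are not named there, and a set may cover more than 1 day. On full and on reduced NTBC each genotype filled its own slide. Dose and set of scan dates cannot be told apart, nor can genotype and slide at those doses. By the level of Xist, all 4 Fah-/- p53-/- arrays with no NTBC and 2 of the 4 Fah-/- p21-/- arrays were from females, and the rest from males. Sex therefore cannot be told apart from dose where Fah-/- p53-/- livers with no NTBC are compared with the same genotype on other doses. Nor can it be told apart from genotype where they are compared with Fah-/- livers. Sex is also unbalanced where Fah-/- p21-/- livers are compared with Fah-/- or Fah-/- p53-/- livers with no NTBC. The same holds for the genotype difference in the response to no NTBC.

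The labels were checked first. The dimmer of 2 Trp53 probes read -2.76 ± 0.40, -2.27 ± 0.26 and -2.80 ± 0.13 in Fah-/- p53-/- livers with no, reduced and full NTBC, against -0.61 ± 0.18, -0.31 ± 0.28 and -1.41 ± 0.08 in Fah-/- livers (SD, n = 4 each). The arrays of the genotypes did not overlap at any dose, while the brighter Trp53 probe read 0.48 ± 0.08 in Fah-/- p53-/- livers and 0.75 ± 0.24 in Fah-/- livers with no NTBC. Cdkn1a, which encodes p21, read 3.19 ± 0.23 in Fah-/- p21-/- livers and 4.23 ± 0.11 in Fah-/- livers with no NTBC, a difference that was not called (adjusted p = 0.138, limma). A probe for Fah gave means of -3.11 to -0.11 over the groups. Where these probes lie relative to the deleted parts was not analysed here. The hepatocyte markers Alb, Apoa1, Apob and Cps1 were well above background on all 28 arrays.

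**Figure D1:**
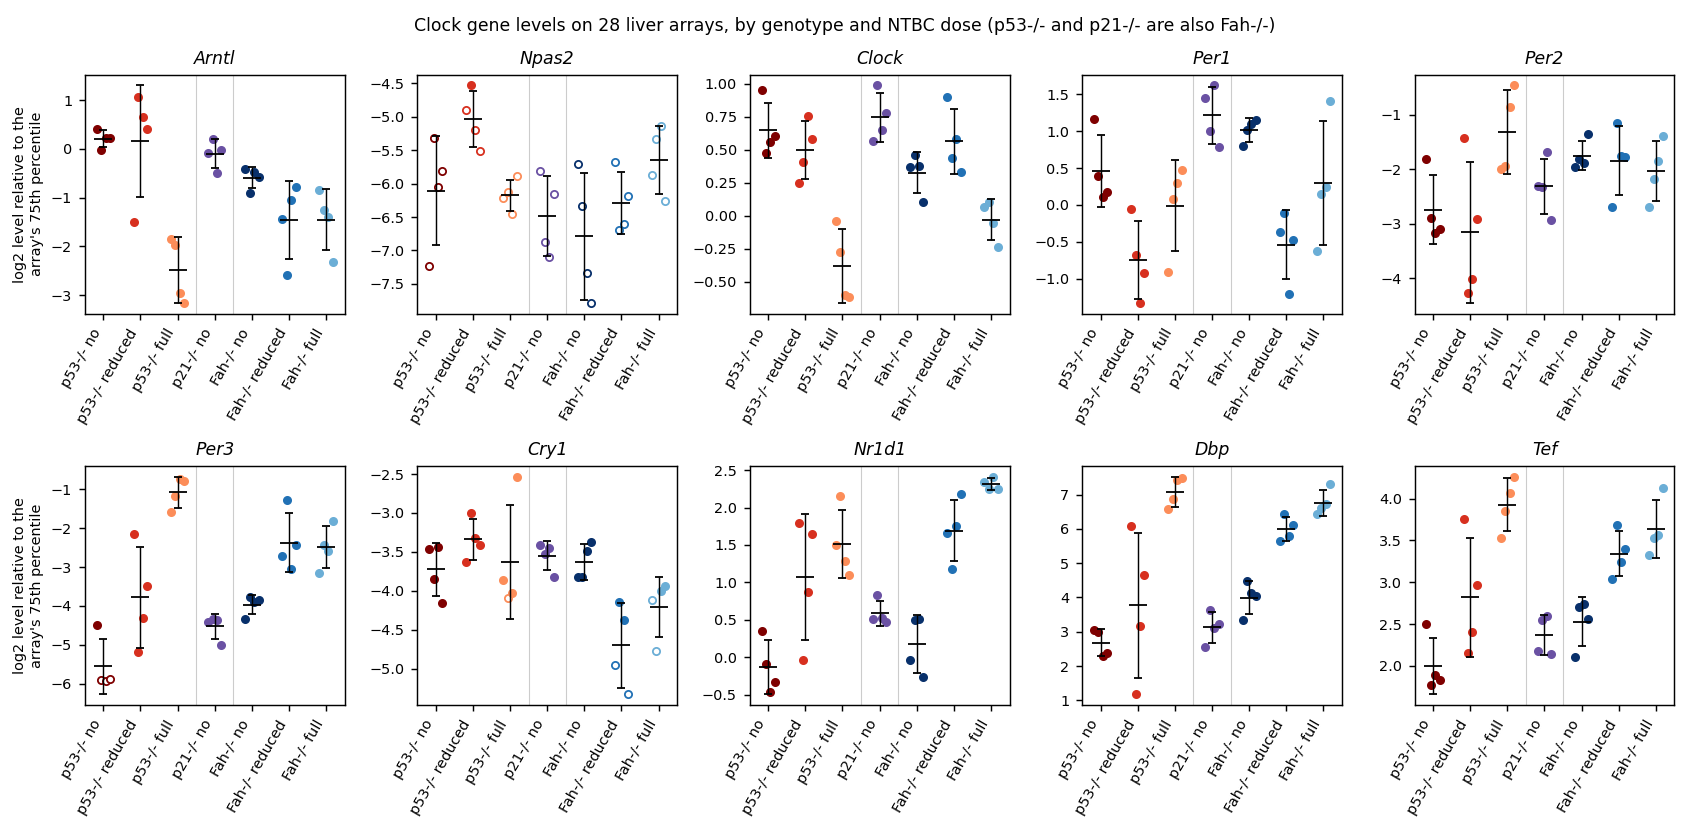
Level of each of the 10 clock genes (log2 signal relative to the array's 75th percentile, vertical axes) in the 7 groups, with Fah-/- p53-/- groups left, then Fah-/- p21-/-, then Fah-/-. Points are arrays, open where the spot was not well above background, and bars are means ± SD (n = 4 arrays); Dbp means lie between 2.68 and 7.08, lowest in Fah-/- p53-/- livers with no NTBC and highest in the same genotype on full NTBC.

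Ranked by mean, Dbp ran from Fah-/- p53-/- livers on full NTBC (7.08) through Fah-/- livers on full (6.77) and reduced NTBC (6.0) to Fah-/- livers with no NTBC (4.0), Fah-/- p53-/- livers on reduced NTBC (3.77), Fah-/- p21-/- livers (3.13) and Fah-/- p53-/- livers with no NTBC (2.68). Only Fah-/- livers on reduced and with no NTBC, next to each other in this order, did not overlap. The order for Per3 likewise began with Fah-/- p53-/- livers on full NTBC (-1.07) and ended with the same genotype with no NTBC (-5.56), and 5 of its 6 neighbouring pairs overlapped. Tef had the same highest and lowest groups (3.93 and 2.0), and all 6 of its neighbouring pairs overlapped. Nr1d1 was highest in Fah-/- livers on full NTBC (2.31), which did not overlap Fah-/- livers on reduced NTBC, the next in order. Per1 was highest in Fah-/- p21-/- livers with no NTBC (1.22 ± 0.39) and lowest in Fah-/- p53-/- livers on reduced NTBC (-0.75 ± 0.53).

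With no NTBC, the output genes Dbp and Tef, the repressor Nr1d1 and Per3 were lower than on full NTBC in both genotypes, and Clock was higher. In Fah-/- p53-/- livers Arntl was called higher and Per2, by its brighter probe, lower as well. The difference between the genotypes in this change was not called for Arntl (adjusted p = 0.0645, limma) or for Per2 (adjusted p = 0.126). In Fah-/- p53-/- livers 2 of the 9 measured genes rose and 5 fell, where 69.6% of all features were called, 29.6% higher and 40% lower. In Fah-/- livers 1 rose and 4 fell, where 70.7% of all features were called, 29% higher and 41.7% lower. The shares of clock genes called are thus near those of all features, and the size of the changes is what the values below describe. The median log2 difference of the 9 genes was -1.42 in Fah-/- p53-/- livers, against -0.14 over all features, and 0.28 in Fah-/- livers, against -0.17 over all features. Each of these medians of the clock genes is the value of Per2 by its brighter probe. Its dimmer probe averaged -4.33 with no NTBC and -2.78 on full NTBC in Fah-/- livers. The sign of the Fah-/- median thus depends on which Per2 probe is used. The alternative called normexp here is normexp background correction followed by quantile normalization. It gave medians over all features near 0 (0.00 and 0.01). Quantile normalization gives all arrays the same distribution, so these medians are largely set by that step. Changes on the main scale are relative to its shift over all features.

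Arntl, whose product BMAL1 is the partner needed by both CLOCK and NPAS2, had levels of 0.40, -0.01, 0.22 and 0.23 in Fah-/- p53-/- livers with no NTBC, against -1.84, -1.96, -2.95 and -3.16 in those on full NTBC. All 4 arrays with no NTBC were above all 4 on the full dose, with a difference of 2.69 ± 0.44 (log2 ± SE, 6.45-fold, adjusted p = 8.39e-06). Arntl in Fah-/- livers read -0.42, -0.90, -0.47 and -0.57 with no NTBC, against -0.84, -1.25, -1.39 and -2.32 on full NTBC. These arrays overlapped by a single pair, replicate 2 with no NTBC and replicate 1 on the full dose, and the difference of 0.86 ± 0.44 did not pass the test (adjusted p = 0.0821). In Fah-/- p21-/- livers with no NTBC it read -0.08, 0.21, -0.50 and -0.02. By mean, the Arntl groups ran from Fah-/- p53-/- livers with no NTBC (0.21) down to the same genotype on full NTBC (-2.48), and the arrays of each group overlapped those of its neighbour in that order in 6 of 6 pairs.

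Clock, the DNA-binding partner of BMAL1, rose in both genotypes by its brightest probe, with smaller differences, and 1 of its 2 dimmer probes did not follow. Its levels were 0.95, 0.47, 0.56 and 0.61 in Fah-/- p53-/- livers with no NTBC, against -0.04, -0.27, -0.60 and -0.62 on full NTBC, groups that did not overlap. The difference was 1.03 ± 0.15 (2.04-fold, adjusted p = 1.9e-06). Clock in Fah-/- livers averaged 0.33 ± 0.16 with no NTBC and -0.03 ± 0.15 on full NTBC (SD, n = 4 each), with overlapping arrays. That difference of 0.36 ± 0.15 was called (adjusted p = 0.0383) but lost its call under 8 of 18 alternatives. Npas2, the relative of Clock, was well above background on 1 of 28 arrays, in a Fah-/- p53-/- liver on reduced NTBC, so no difference is given for it.

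Among the Per genes, whose products repress the BMAL1 pairs, Per3 moved furthest. Its levels were -4.49, -5.92, -5.93 and -5.89 in Fah-/- p53-/- livers with no NTBC, against -1.59, -1.18, -0.74 and -0.79 on full NTBC. The groups lay far apart, with replicate 1 the highest of the arrays with no NTBC and the only 1 of these 4 well above background. The fitted difference was -4.48 ± 0.47 (adjusted p = 1.06e-08), and since 3 of the 4 lower values were not well above background its size is uncertain. Per3 in Fah-/- livers read -4.33, -3.78, -3.91 and -3.85 with no NTBC, against -3.14, -2.43, -2.58 and -1.82 on full NTBC. Here too the groups did not overlap, and the difference was -1.47 ± 0.47 (2.77-fold lower, adjusted p = 0.00747). For this dim probe the size depended on the processing. With normexp the differences were -1.66 (adjusted p = 1.77e-08) in Fah-/- p53-/- livers and -0.59 (adjusted p = 0.00625) in Fah-/- livers, and the deposited value table gave -1.64 and -0.57.

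Per2, a core repressor, had levels of -1.82, -2.89, -3.18 and -3.09 in Fah-/- p53-/- livers with no NTBC, against -2.00, -1.94, -0.86 and -0.46 on full NTBC. The arrays overlapped through replicate 1 with no NTBC, and the difference was -1.42 ± 0.49 (adjusted p = 0.0125). It lost its call when full NTBC replicate 4 was left out (adjusted p = 0.0549), and was -0.81 with normexp and -0.82 in the deposited value table. The Per2 difference in Fah-/- livers was 0.28 ± 0.49 (adjusted p = 0.617). Per1, the Per gene that also answers acute signals such as cAMP and glucocorticoids, averaged 0.46 ± 0.49 with no NTBC and -0.01 ± 0.62 on full NTBC in Fah-/- p53-/- livers (difference 0.47 ± 0.36, adjusted p = 0.249). Per1 in Fah-/- livers averaged 1.02 ± 0.16 with no NTBC and 0.30 ± 0.84 on full NTBC, the full-dose arrays spanning -0.62 to 1.42 (difference 0.72 ± 0.36, adjusted p = 0.0785). Cry1, the partner of the PER proteins in repression, differed by -0.10 ± 0.29 in Fah-/- p53-/- livers (adjusted p = 0.765) and by 0.59 ± 0.29 in Fah-/- livers (adjusted p = 0.0731). Its probe was well above background on 3 of 4 Fah-/- p53-/- arrays and 2 of 4 Fah-/- arrays on full NTBC.

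Nr1d1, which encodes the Arntl repressor REV-ERBα, fell in both genotypes. It read 0.35, -0.08, -0.47 and -0.33 in Fah-/- p53-/- livers with no NTBC, against 1.51, 2.15, 1.28 and 1.11 on full NTBC. Fah-/- livers read -0.03, 0.50, 0.51 and -0.26 with no NTBC, against 2.34, 2.24, 2.41 and 2.24 on full NTBC. Neither pair of groups overlapped. The differences were -1.65 ± 0.30 in Fah-/- p53-/- livers (3.13-fold lower, adjusted p = 4.27e-05) and -2.13 ± 0.30 in Fah-/- livers (4.38-fold lower, adjusted p = 1.36e-06).

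Dbp, a direct target of the BMAL1 pair with a steep daily rhythm in liver, had levels of 3.04, 3.00, 2.28 and 2.39 in Fah-/- p53-/- livers with no NTBC, against 6.57, 6.88, 7.41 and 7.48 on full NTBC. Fah-/- livers had Dbp levels of 3.35, 4.47, 4.12 and 4.05 with no NTBC, against 6.44, 6.60, 6.72 and 7.31 on full NTBC. Every array with no NTBC was below every full-dose array of its genotype. The Dbp differences were -4.41 ± 0.59 in Fah-/- p53-/- livers (21.2-fold lower, adjusted p = 5.85e-07) and -2.77 ± 0.59 in Fah-/- livers (6.81-fold lower, adjusted p = 0.000236). Tef, a relative of Dbp with a shallower rhythm, averaged 2.0 ± 0.34 with no NTBC and 3.93 ± 0.32 on full NTBC in Fah-/- p53-/- livers, and 2.53 ± 0.29 with no NTBC and 3.64 ± 0.35 on full NTBC in Fah-/- livers (SD, n = 4 each). Again no arrays overlapped, and the differences were -1.93 ± 0.26 (adjusted p = 7.65e-07) and -1.11 ± 0.26 (adjusted p = 0.000697). In the mean of the 3 Tef probes the Fah-/- difference was not called (adjusted p = 0.189).

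Markers of hepatocytes and of other cells moved with dose as well. The summed linear signal of the 4 measured hepatocyte markers of 6 listed had a lowest, median and highest value of 541, 575 and 601 in Fah-/- p53-/- livers with no NTBC, against 1881, 1970 and 2119 on full NTBC. In Fah-/- livers these were 566, 620 and 666 with no NTBC, against 1686, 2062 and 2094 on full NTBC. All 4 hepatocyte markers fell in both genotypes, with median differences of -2.11 and -1.89. Of the 6 macrophage markers 5 rose in Fah-/- p53-/- livers and 6 in Fah-/- livers, with sums of 54.2 to 79.9 with no NTBC and 19.3 to 34.4 on full NTBC in Fah-/- p53-/- livers, and 29.2 to 217 and 18.4 to 33.2 in Fah-/- livers. Of the 4 bile duct markers 3 rose in each genotype (median differences 1.78 in Fah-/- p53-/- livers and 1.22 in Fah-/- livers). Of the 5 leukocyte markers 3 fell in each (medians -1.72 and -1.22), and 1 rose in Fah-/- livers. Their sums did not fall: the median was 2.02 with no NTBC and 1.64 on full NTBC in Fah-/- p53-/- livers, and 1.78 and 1.52 in Fah-/- livers. Cd79a and Cd3g were not well above background on all arrays of these groups. Of the 5 stellate cell markers 2 rose in Fah-/- p53-/- livers and 1 in Fah-/- livers. Of the 5 endothelial markers 0 rose and 2 fell in Fah-/- p53-/- livers, and 3 rose and 1 fell in Fah-/- livers. The part of these shifts in the clock genes' changes was not tested. In bulk liver RNA, fewer cells of a type and less RNA per cell cannot be told apart.

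**Figure D2:**
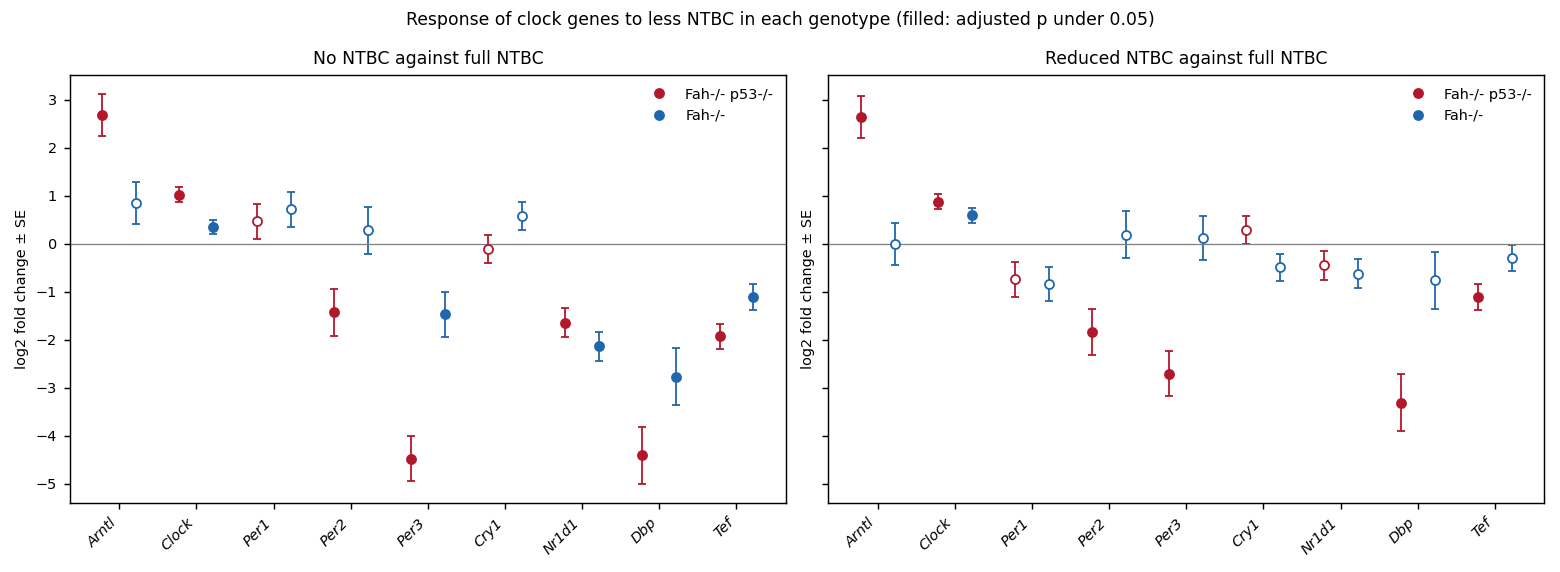
Log2 difference ± SE of 9 clock genes for no against full NTBC and reduced against full NTBC, with Fah-/- p53-/- left of Fah-/- and filled points for genes called by limma. With no NTBC the fall of Per3 was -4.48 in Fah-/- p53-/- livers and -1.47 in Fah-/- livers, and on reduced NTBC Dbp differed by -3.32 and -0.76.

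On reduced NTBC Arntl and Clock rose and Dbp, Tef, Per2 and Per3 fell in Fah-/- p53-/- livers, and in Fah-/- livers only Clock passed the test. In Fah-/- p53-/- livers 2 of the 9 genes rose and 4 fell, where 39.6% of all features were called, 20.2% higher and 19.4% lower, and the median difference was -0.74, against 0.03 over all features. In Fah-/- livers 1 rose and 0 fell, where 39.5% of all features were called, 17.5% higher and 22% lower, and the median difference was -0.30, against -0.03 over all features.

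Fah-/- p53-/- arrays on reduced NTBC lay far from each other, with replicates 1 and 2 at the ends for Arntl, Dbp and Per3. Arntl read -1.5, 1.07, 0.66 and 0.41, against -1.84, -1.96, -2.95 and -3.16 on full NTBC. Dbp read 6.09, 1.18, 3.16 and 4.64, against 6.57, 6.88, 7.41 and 7.48 on full NTBC. Per3 read -2.15, -5.18, -4.31 and -3.49, against -1.59, -1.18, -0.74 and -0.79 on full NTBC. For all 3 genes the reduced-dose arrays stayed to the same side of the full-dose arrays, with replicate 1 next to them and replicate 2 farthest away. The differences were 2.64 ± 0.44 for Arntl (adjusted p = 5.34e-05) and -3.32 ± 0.59 for Dbp (adjusted p = 0.000123). For Per3 the difference was -2.71 ± 0.47 (adjusted p = 8.41e-05). These SEs come from a spread shared by all 7 groups, and the 3 genes spread more in this group than in any other. In a fit to the groups compared alone the adjusted p was 0.00779 for Arntl, 0.021 for Dbp and 0.00755 for Per3 (limma).

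Clock rose in these livers by 0.88 ± 0.15 (adjusted p = 7.57e-05), with no overlap. Tef fell by 1.11 on the log2 scale (SE 0.26, adjusted p = 0.00195) and Per2 by 1.84 (SE 0.49, adjusted p = 0.00459), both with overlapping arrays, since replicate 1 read 3.76 for Tef and -1.43 for Per2. Per2 was not called in a fit to these groups alone (adjusted p = 0.0506). With normexp, Per2 differed by -1.01 (adjusted p = 0.00306) and Per3 by -1.39 (adjusted p = 3.07e-06). The rest of the genes were not called: Nr1d1, with levels of 1.79, -0.04, 0.87 and 1.65 (adjusted p = 0.256), Per1 (-0.74 ± 0.36, adjusted p = 0.11) and Cry1 (0.29 ± 0.29, adjusted p = 0.454). Without replicate 1 the differences were 3.19 for Arntl, -4.09 for Dbp and -3.25 for Per3, and Per1 was called too (-0.97, adjusted p = 0.0485). Without replicate 2 they were 2.34 for Arntl, -2.45 for Dbp and -2.24 for Per3, and the same 6 genes as with all arrays were called.

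Clock in Fah-/- livers read 0.90, 0.44, 0.58 and 0.33 on reduced NTBC, against 0.07, 0.10, -0.05 and -0.24 on full NTBC. These arrays did not overlap, and the difference was 0.59 ± 0.15 (1.51-fold, adjusted p = 0.00317). Nr1d1 arrays did not overlap either, at 1.66, 1.17, 1.76 and 2.17 on reduced NTBC and 2.34, 2.24, 2.41 and 2.24 on full NTBC, but the difference of -0.62 ± 0.30 was not called (adjusted p = 0.109). Dbp read 5.66, 6.44, 5.80 and 6.12 on reduced NTBC, against 6.44, 6.60, 6.72 and 7.31 on full NTBC (-0.76 ± 0.59, adjusted p = 0.326). The hepatocyte marker sums were 1126, 1189 and 1261 in Fah-/- p53-/- livers and 1145, 1180 and 1243 in Fah-/- livers on reduced NTBC, as lowest, median and highest. The macrophage sums there were 19.7 to 30.7 and 15.0 to 23.9, and 0 of 6 macrophage markers were called against the full dose in either genotype. Of the 4 bile duct markers 3 fell in each genotype, with medians of -1.29 in Fah-/- p53-/- livers and -1.75 in Fah-/- livers, and 1 rose in Fah-/- p53-/- livers. Epcam, 1 of these markers, was well above background on 2 of 4 Fah-/- p53-/- and 0 of 4 Fah-/- arrays on reduced NTBC. Leukocyte markers fell for 0 of 5 in Fah-/- p53-/- livers and 2 of 5 in Fah-/- livers.

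Whether the response to NTBC differed by genotype was tested as an interaction, the change in Fah-/- p53-/- livers minus that in Fah-/- livers. For reduced NTBC 2 of the 9 genes were called, where 10.2% of all features were, 6.51% with a positive and 3.64% with a negative interaction. Arntl had an interaction of 2.65 ± 0.62 (adjusted p = 0.00884), from changes of 2.64 in Fah-/- p53-/- livers and -0.01 in Fah-/- livers. Per3 had -2.83 ± 0.66 (adjusted p = 0.00888), from -2.71 and 0.12. Dbp (-2.55 ± 0.84, adjusted p = 0.0532) and Per2 (-2.02 ± 0.69, adjusted p = 0.0632) were just short of the threshold. Without reduced NTBC replicate 1 of Fah-/- p53-/- livers 5 genes were called: Arntl, Per3, Dbp (-3.33, adjusted p = 0.00347), Per2 (-2.60, adjusted p = 0.0083) and Tef (-1.12, adjusted p = 0.0298). Without replicate 2 of that group only Arntl (2.35, adjusted p = 0.0231) and Per3 (-2.36, adjusted p = 0.0205) were called, and Dbp was at -1.69 (adjusted p = 0.0899). With normexp the Per3 interaction was -1.40 (adjusted p = 0.00118). In a fit to the groups compared alone the adjusted p was 0.0356 for Arntl and 0.0259 for Per3 (limma).

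For no NTBC 2 of the 9 genes were called, where 9.14% of all features were, 5.02% with a positive and 4.12% with a negative interaction. Per3 had an interaction of -3.01 ± 0.66 (adjusted p = 0.00528), which also rests on those dim arrays and was -1.07 with normexp (adjusted p = 0.00874). Clock had 0.67 ± 0.21 (adjusted p = 0.0475), a call lost under 16 of 27 alternatives, with adjusted p up to 0.103. Arntl had 1.83 ± 0.62 (adjusted p = 0.0645), and the other 6 genes were not called.

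**Figure D3:**
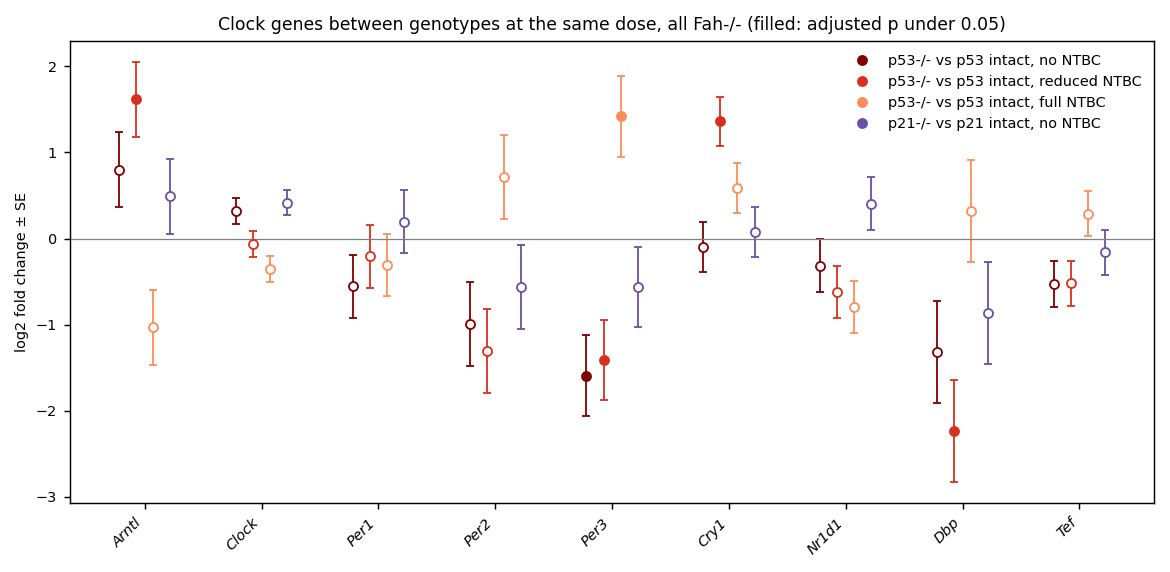
Log2 difference ± SE of 9 clock genes between Fah-/- p53-/- and Fah-/- livers with no, reduced and full NTBC, and between Fah-/- p21-/- and Fah-/- livers with no NTBC; filled points were called by limma. The Per3 difference was 1.42 on full NTBC and -1.59 with no NTBC.

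Genotypes were then compared at the same dose. On full NTBC 1 of the 9 genes was called, where 13.9% of all features were, 6.06% higher and 7.83% lower: Per3 averaged -1.07 ± 0.40 in Fah-/- p53-/- livers and -2.49 ± 0.54 in Fah-/- livers (SD, n = 4 each), with no overlap. The difference was 1.42 ± 0.47 (2.67-fold, adjusted p = 0.044), and the call was lost under 10 of 17 alternatives, with adjusted p up to 0.133. With normexp it was 0.81 (adjusted p = 0.00377). With no NTBC 1 of 9 was called, where 14% of all features were, 7.53% higher and 6.47% lower, and it was Per3 in the other direction: -5.56 ± 0.71 in Fah-/- p53-/- livers and -3.96 ± 0.25 in Fah-/- livers. Of the Fah-/- p53-/- arrays 1 of 4 was well above background, so the size is uncertain. The fitted difference of -1.59 ± 0.47 (adjusted p = 0.0255) became -0.27 with normexp (adjusted p = 0.367), and within the slide that held both genotypes it was -1.86 (adjusted p = 0.166). Arntl, Clock and Dbp arrays did not overlap between these groups, with differences of 0.80 (adjusted p = 0.236), 0.32 (adjusted p = 0.16) and -1.32 (adjusted p = 0.142).

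On reduced NTBC 4 of the 9 genes were called, where 15.8% of all features were, 9.52% higher and 6.26% lower. Cry1 read -3.63, -2.99, -3.32 and -3.41 in Fah-/- p53-/- livers, against -4.96, -4.14, -4.38 and -5.33 in Fah-/- livers. The groups did not overlap, and 4 of the Fah-/- p53-/- arrays and 2 of the Fah-/- arrays were well above background. The difference was 1.36 ± 0.29 (2.57-fold, adjusted p = 0.0025), but 0.26 with normexp (adjusted p = 0.0316). Arntl differed by 1.62 ± 0.44 (3.07-fold, adjusted p = 0.0135), Dbp by -2.24 ± 0.59 (4.71-fold lower, adjusted p = 0.0122) and Per3 by -1.41 ± 0.47 (2.66-fold lower, adjusted p = 0.0415), and the arrays of the genotypes overlapped for all 3. In a fit to these groups alone Arntl (adjusted p = 0.0903) and Dbp (adjusted p = 0.118) were not called. Per3 lost its call under 9 of 17 alternatives, and differed by -0.60 with normexp (adjusted p = 0.0348). The overlap came from replicate 1 of the Fah-/- p53-/- livers in each case. Without that replicate the differences were 2.17 for Arntl (adjusted p = 0.000518), -3.01 for Dbp (adjusted p = 0.000358) and -1.95 for Per3 (adjusted p = 0.00323), and Per2 (-1.89, adjusted p = 0.0055) and Tef (-0.83, adjusted p = 0.0197) were called too. Without replicate 2 they were 1.31 for Arntl (adjusted p = 0.0638), -1.37 for Dbp (adjusted p = 0.0488) and -0.94 for Per3 (adjusted p = 0.186), and only Dbp and Cry1 (1.25, adjusted p = 0.0123) were called.

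In Fah-/- p21-/- livers against Fah-/- livers with no NTBC 0 of the 9 genes were called, where 7.37% of all features were, 4.01% higher and 3.36% lower. At an unadjusted p under 0.05 there was 1 clock gene, Clock, which read 0.56, 0.99, 0.65 and 0.78 in Fah-/- p21-/- livers, against 0.37, 0.46, 0.38 and 0.10 in Fah-/- livers (difference 0.42, adjusted p = 0.0911, limma). These arrays did not overlap. Per3 arrays did not overlap either, though the nearest were equal to 2 decimals, at -4.41, -4.33, -4.36 and -5.00 in Fah-/- p21-/- livers and -4.33, -3.78, -3.91 and -3.85 in Fah-/- livers. Between Fah-/- p53-/- and Fah-/- p21-/- livers with no NTBC 0 genes were called, where 11% of all features were, 4.96% higher and 6.02% lower, and 3 had an unadjusted p under 0.05: Nr1d1, Per1 and Per3. Nr1d1 differed by -0.72 (adjusted p = 0.134), with no overlap.

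Within groups most of the clock genes had an SD above the median over all features. On reduced NTBC in Fah-/- p53-/- livers the SD over 4 arrays was 2.10 for Dbp, 1.29 for Per2, 1.29 for Per3 and 1.14 for Arntl, against a median SD of 0.19 over all features. All 9 genes measured were above it in that group, in Fah-/- p53-/- livers on full NTBC and in Fah-/- livers on reduced NTBC. In the other 4 groups 5 to 7 of 9 were. The Per2 value is that of its brighter probe, and the dimmer one had an SD of 0.34 in Fah-/- p53-/- livers on reduced NTBC.

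The spread was shared between some of the genes. Over the 28 arrays, deviations from the group mean of Arntl ran against those of Per3 (Pearson r = -0.77), Per2 (-0.77), Tef (-0.75) and Dbp (-0.70). They also ran against those of Per1 (-0.67), and had little relation to those of Nr1d1 (-0.06) and Cry1 (-0.23). Clock was weakly related to Per3 (-0.24) and Dbp (-0.20), but ran with Arntl (0.51) and against Per2 (-0.49) and Per1 (-0.46). Per3 and Tef ran together (0.92), as did Per2 and Tef (0.91), Per2 and Per3 (0.88), and Dbp and Tef (0.85). Without the 4 Fah-/- p53-/- arrays on reduced NTBC these became -0.63 for Arntl with Per3, -0.55 for Arntl with Dbp and 0.86 for Per3 with Tef over 24 arrays. Nr1d1 with Dbp depended on those arrays, at 0.66 over 28 and 0.11 over 24. Genes on an array share its RNA, its depth of signal and its scaling, so these are descriptions only. Each gene stands here by its brightest probe.

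**Figure D4:**
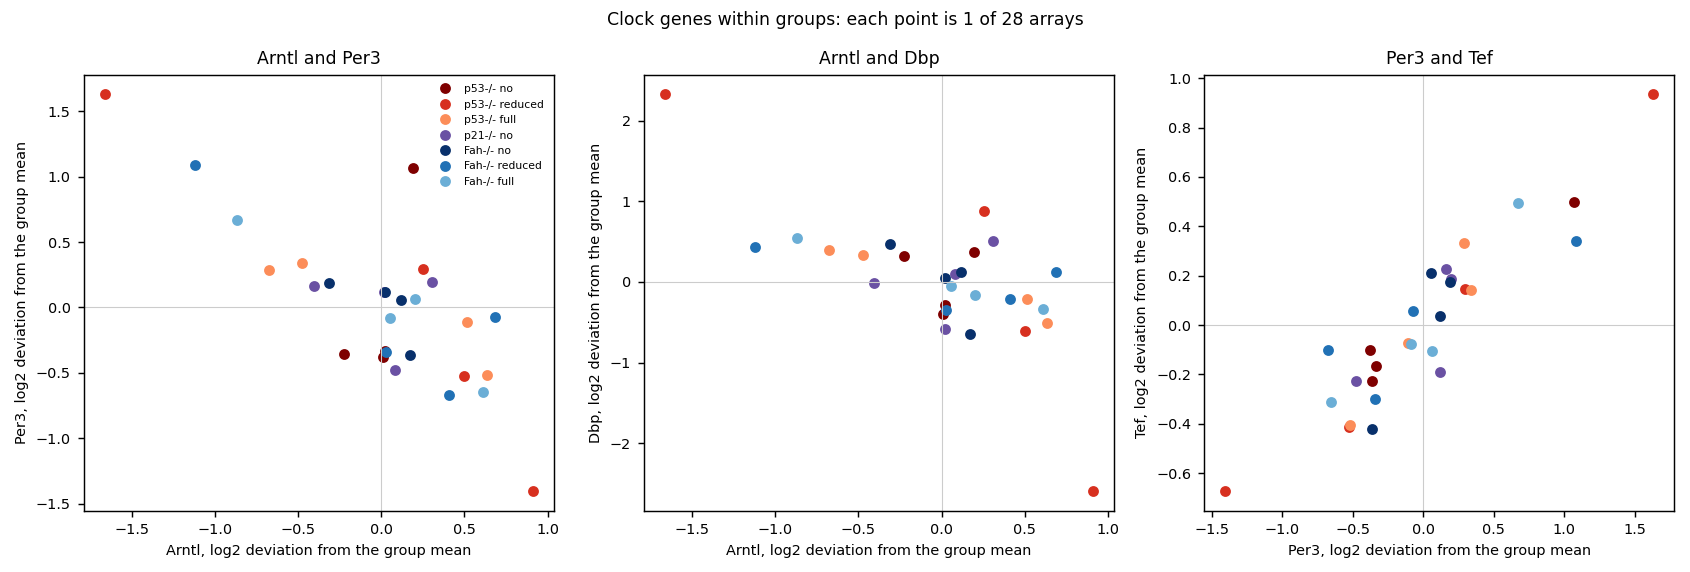
Deviations from the group mean (log2) of Arntl against Per3, Arntl against Dbp and Per3 against Tef, 1 point per array, 28 arrays, coloured by group. Arntl falls as Per3 and Dbp rise (r = -0.77 and -0.70) and Per3 and Tef rise together (r = 0.92), with Fah-/- p53-/- arrays on reduced NTBC at the ends.

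By the same measure, the features outside the 10 genes most like Arntl were Nfil3 (r = 0.868), which encodes a repressor of D-box genes, then Id2 (0.855), Abtb2 (0.845), a transcript with no symbol (0.845) and Asap2 (0.822), over 28 arrays. Those most like Dbp included a probe known only by its design name NAP065150-1 (0.922) and Nr1d2 (0.821), the relative of Nr1d1. Msmo1 (0.811), an enzyme of cholesterol synthesis, and Tmem126b (0.784) were among them too. Arntl and Dbp spread most in Fah-/- p53-/- livers on reduced NTBC, and these rankings were not repeated without those arrays.

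Probes of the same gene did not always give the same answer. All 3 Nr1d1 probes gave falls with no NTBC, of -1.65 to -1.78 in Fah-/- p53-/- livers and -1.96 to -2.14 in Fah-/- livers. Of the 2 dimmer Clock probes, 1 differed with no NTBC by 1.19 in Fah-/- p53-/- livers and 0.54 in Fah-/- livers (adjusted p over probes 2.43e-07 and 0.00279), like the brightest. The other differed by 0.19 in Fah-/- p53-/- livers (adjusted p over probes 0.374) and by -0.28 in Fah-/- livers (adjusted p over probes 0.174). The dimmer Per2 probe fell with no NTBC in both genotypes, by 1.66 on the log2 scale in Fah-/- p53-/- livers (adjusted p over probes 4.5e-07) and by 1.55 in Fah-/- livers (adjusted p over probes 1.33e-06), whereas the brighter one differed by 0.28 in Fah-/- livers. On reduced NTBC the dimmer Per2 probe differed by 0.11 in Fah-/- p53-/- livers (adjusted p over probes 0.726), against -1.84 for the brighter one. The Per2 statements above thus rest on 1 of 2 probes.

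The dimmer Cry1 probe rose in Fah-/- p53-/- livers, by 1.58 ± 0.25 with no NTBC and 1.31 ± 0.25 on reduced NTBC, where the brighter one differed by -0.10 and 0.29. It was well above background on 4 of 4 arrays of each of those groups, against 1 of 4 on full NTBC, so the sizes are uncertain. In Fah-/- livers it was well above background on 4 of 4 arrays with no NTBC and 0 of 4 on full and on reduced NTBC, so its level on those doses is only bounded. For Tef, the dimmer probes differed by 0.44 and -0.45 with no NTBC in Fah-/- livers (adjusted p over probes 0.133 and 0.171), against -1.11 for the brightest. In Fah-/- p53-/- livers all 3 Tef probes fell, by 0.71 to 1.93 on the log2 scale.

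**Figure D5:**
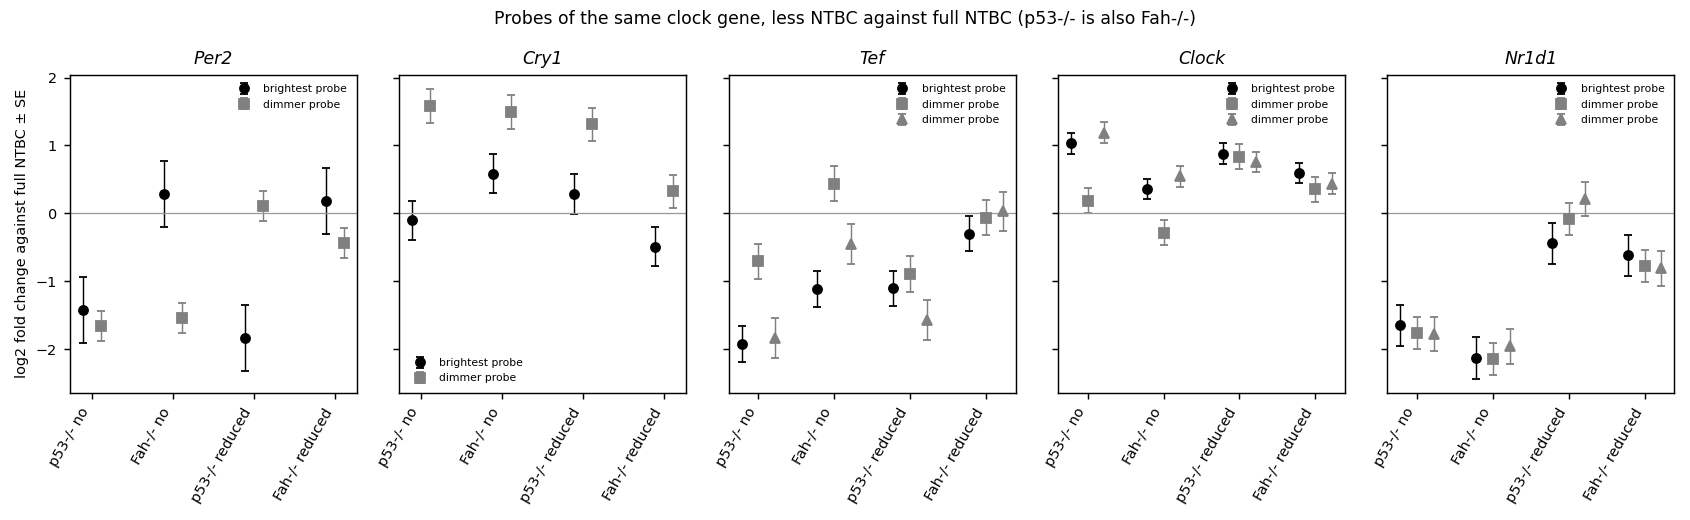
Log2 difference ± SE of every probe of Per2, Cry1, Tef, Clock and Nr1d1 for less against full NTBC in Fah-/- p53-/- and Fah-/- livers. The 2 Per2 probes lie apart on reduced NTBC in Fah-/- p53-/- livers (-1.84 and 0.11), while the 3 Nr1d1 probes lie together with no NTBC; the dimmer Cry1 probe was not well above background on full NTBC in Fah-/- livers, so its point there is no measured fold.

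Of 11 further genes of the loop measured of 12 listed, 1 rose and 6 fell with no NTBC in each genotype. The share called was no higher than that of all features (69.6% in Fah-/- p53-/- livers and 70.7% in Fah-/- livers). Bhlhe40, which encodes the repressor DEC1, differed by -1.85 ± 0.30 in Fah-/- p53-/- livers (adjusted p = 9.34e-06) and by -2.44 ± 0.30 in Fah-/- livers (adjusted p = 1.66e-07). Ciart, whose product inhibits the BMAL1 pair, differed by -3.06 ± 0.81 in Fah-/- p53-/- livers with no NTBC (adjusted p = 0.00188). Timeless, better known for its part in DNA replication in mammals, rose there by 1.76 ± 0.29 (adjusted p = 8.78e-06). The median difference of these 11 genes was -0.68 in Fah-/- p53-/- livers and -0.74 in Fah-/- livers, against -0.14 and -0.17 over all features.

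On reduced NTBC 2 of the 11 rose and 5 fell in Fah-/- p53-/- livers, and 0 rose and 2 fell in Fah-/- livers, where 39.6% and 39.5% of all features were called. Bhlhe40 averaged 0.68 ± 0.95 on reduced NTBC and 2.57 ± 0.16 on full NTBC in Fah-/- p53-/- livers (-1.90 ± 0.30, adjusted p = 3.62e-05). In Fah-/- livers it averaged 1.58 ± 0.22 on reduced NTBC and 3.00 ± 0.31 on full NTBC (-1.42 ± 0.30, adjusted p = 0.000702). Timeless was also higher in Fah-/- p53-/- livers than in Fah-/- livers with no NTBC (1.67 ± 0.29, adjusted p = 0.000499) and in Fah-/- p21-/- livers than in Fah-/- livers (1.46, adjusted p = 0.00312).

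Among 9 known clock-driven output genes 2 rose and 4 fell with no NTBC in Fah-/- p53-/- livers, and 3 rose and 1 fell in Fah-/- livers. The shares called were below the 69.6% and 70.7% of all features. Nampt, the rate-limiting enzyme of NAD salvage, rose by 2.18 ± 0.21 in Fah-/- livers (adjusted p = 3.15e-09) and by 1.16 in Fah-/- p53-/- livers. Tsc22d3, a glucocorticoid target also known as GILZ, fell by 1.87 on the log2 scale in Fah-/- livers (SE 0.31, adjusted p = 1.12e-05) and by 1.07 in Fah-/- p53-/- livers. Of 8 kinases and ubiquitin ligases that set the stability of clock proteins, 3 rose and 3 fell with no NTBC in each genotype, near the share of all features called (69.6% and 70.7%). Csnk1e, which encodes casein kinase 1ε, a kinase of the PER proteins, rose by 1.0 ± 0.12 in Fah-/- livers (adjusted p = 1.86e-07) and by 0.49 in Fah-/- p53-/- livers (adjusted p = 0.00133). Btrc, which encodes an F-box protein that marks phosphorylated PER for breakdown, fell by 0.57 on the log2 scale in Fah-/- p53-/- livers (adjusted p = 5.84e-06) and by 0.39 in Fah-/- livers.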

How the data were processed

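Liver RNA of 28 samples, 4 in each of 7 genotype and dose groups taken from the labels, was measured on 1-colour arrays. Amplification of 0.1 ug of RNA with the dye Cy3 is given in the labels' protocols. Scanner files came from Agilent Feature Extraction (10.7.3.1 per the file headers, 10.5 per the submitters' processing notes). They hold, as deposited, a processed intensity per spot after background subtraction and with no scaling between arrays, the median intensity of spot and background, and flags for spots above background. A deposited table of log2 values has array medians of 6.89 to 6.912, and correlates per array at 0.9895 to 0.9994 with the median spot intensity, above its correlation with the processed one. The sources used here do not say how the authors made it.

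After 1639 control spots were set aside, log2 processed intensities were averaged to 41174 probes and each array's log2 75th percentile was subtracted. A probe was kept if flagged as well above background throughout 1 or more groups of 4 arrays (27508 probes). Symbols came from RefSeq by accession, and the kept probe with the highest mean stood for a gene. limma 3.58.1 (R 4.3.3, the package data.table, 1.17.8) fitted 7 group means to 28 arrays (21 residual degrees of freedom) and made 11 comparisons, with Benjamini-Hochberg adjustment over 20302 features and calls at 0.05. Figures were drawn with Python 3.11.15 and matplotlib 3.10.9. The fit was tested on simulated data.

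The 10 genes, the further gene lists and the rule for the genes named were chosen with earlier results of these data known. The rule takes the 10 genes, up to 4 called members of each further list with the largest change per comparison, and the 5 features most like Arntl and Dbp. The text gives fewer, and 1 withheld gene is left out. The alternatives were normexp (offset 50), quantile normalization, the deposited value table, other filters, the mean of a gene's probes, the groups compared alone, trended and robust variances, replicate and slide blocks, comparisons within a slide, and each array left out. Normexp used median intensities, since mean intensities were not among the columns, and was followed by quantile normalization. Leaving out the 3 arrays farthest from their groups was added after the data were seen.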

Additional observations from a re-analysis of the deposited data

Results flagged for a closer look

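Among 63 combinations of clock gene and group, 4 had an array far from the other 3 of its group, and chance alone gives such a gap in about 1 of 20 groups. Per3 in Fah-/- p21-/- livers with no NTBC had a lowest array at -5.00 (replicate 4). Per3 in Fah-/- p53-/- livers with no NTBC had a highest array at -4.49 (replicate 1), the only one there well above background. Cry1 in Fah-/- p53-/- livers on full NTBC had a highest array at -2.53 (replicate 4). Nr1d1 in Fah-/- p21-/- livers with no NTBC had a highest array at 0.83 (replicate 2).

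The response to NTBC differed between Fah-/- p53-/- and Fah-/- livers, by the interaction in limma, for 4 gene and dose combinations. On reduced NTBC it was 2.65 for Arntl and -2.83 for Per3. With no NTBC it was 0.67 for Clock and -3.01 for Per3. In reduced-dose Fah-/- p53-/- livers replicates 1 and 2 lay at the ends for Arntl, Per3 and Dbp. The interactions on reduced NTBC were 3.20 for Arntl and -3.37 for Per3 without replicate 1, and 2.35 for Arntl and -2.36 for Per3 without replicate 2.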

How the results depend on the processing

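Of the calls in the report, those of Arntl, Clock, Dbp, Per3 and Tef on reduced NTBC and of these and Nr1d1 with no NTBC in Fah-/- p53-/- livers were made under every alternative that measured the gene. So were those of Dbp, Nr1d1 and Per3 with no NTBC and of Clock on reduced NTBC in Fah-/- livers, of Cry1 between genotypes on reduced NTBC, of the interactions of Arntl and Per3 on reduced NTBC, and of that of Per3 with no NTBC. Per3 and Cry1 were not measured under the filter on all arrays. Their probes were well above background on 25 and 23 of 28 arrays. The number of clock genes called between genotypes on full NTBC was 1, and 0 with quantile normalization, with no filter, with a filter on all arrays, with the replicate block and with slide as a random block, 2 with the groups alone, and 0 to 1 with an array left out. Between genotypes on reduced NTBC it was 4, and 2 with a filter on all arrays, 1 with the groups alone and 2 to 6 with an array left out. Between genotypes with no NTBC it was 1, and 0 with normexp, the value table, a filter on all arrays and within the shared slide, 3 with the groups alone, and 0 to 1 with an array left out. Against Fah-/- p21-/- livers it was 0, and 0 to 1 with an array left out, Per3 being gained without Fah-/- p53-/- replicate 1. For the interaction with no NTBC it was 2, and 1 with the mean of probes, with a filter on all arrays or none, with slide as a random block and without the 3 farthest arrays, and 1 to 3 with an array left out. For the interaction on reduced NTBC it was 2, and 2 to 5 with an array left out. For reduced NTBC in Fah-/- livers it was 1, and 2 with normexp, the value table and the mean of probes, 3 with the groups alone, and 1 to 2 with an array left out. For the other counts, leaving out an array gave 6 to 7 with no NTBC and 6 to 7 on reduced NTBC in Fah-/- p53-/- livers, 4 to 6 with no NTBC in Fah-/- livers, and 0 to 0 for Fah-/- p21-/- against Fah-/- livers. Cry1 with no NTBC in Fah-/- p53-/- livers turned to 0.74 with the mean of its probes, which differed by -0.10 and 1.58. The cause of the other changes was not tested. Replicate numbers were not taken to pair the samples. Over 84 same-numbered comparisons of deviations 18 correlated above 0.1, with a range of -0.23 to 0.36. The same number was the best match of 4 in 28 of them, which does not exclude pairing. The replicate block changed no count of clock genes by over 1.5 times other than the one on full NTBC. Signal over background limits Per3, Cry1 and Npas2, whose size moved with the processing or could not be given.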
